A study of Mus musculus with 6 samples.

Results

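The ribosome biogenesis and nucleolar genes are a set of 34 listed genes whose products transcribe, modify, cut and package ribosomal RNA in the nucleolus. They were taken by symbol from the array's annotation, with the probe set of the highest mean where a symbol had several. Of the 34 genes, 32 were measured, among 19938 genes with a single symbol on the array. Ppan shared its only annotated probe set with another gene and Noc2l had none in the annotation used here, so neither was analysed here. All 32 had a mean at or above the filter for dim genes (log2 5.87), and 9969 genes in all did.

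Ribosomes are built in the nucleolus. RNA polymerase I transcribes a long precursor RNA, small nucleolar ribonucleoproteins (snoRNPs) modify it at chosen bases, and a succession of assembly factors cuts and folds it into the small and large subunits. The transcription factor Myc is known to raise many of these genes together, and the demand for ribosomes is generally tied to cell growth. In 3T3-L1 cells the hormonal induction of fat cell formation is followed by a phase of cell division before lipid accumulates.

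The series measured total RNA of 3T3-L1, an established line of mouse fibroblasts with the capacity to become fat cells, on Affymetrix arrays with biotin label. Adipocytes were grown to confluence and induced for 3 days in 10% fetal bovine serum with dexamethasone (1 µmol/l), insulin (1 µg/ml) and the phosphodiesterase inhibitor IBMX (115 µg/ml), then held for 3 days in 10% fetal bovine serum with 1 µg/ml insulin. The AICAR adipocytes had 0.5 mM of that compound in their induction medium, the adenine adipocytes 0.5 mM adenine, and the control adipocytes had neither. The insulin medium held no compound, so these cells were collected 3 days after the compound was taken away. Fibroblasts were kept in 10% calf serum, for 3 days with AICAR at 0.5 mM or with adenine at 0.5 mM, or with no compound as the control. AICAR is a nucleoside whose phosphorylated form mimics AMP and switches on the energy sensor AMPK, and adenine is a purine base that cells salvage to AMP. Each of the 6 conditions had 1 array, so no difference has a replicate check. The labels call every array's cell type fibroblasts and give the adipocyte state as a subtype. Adipocytes differed from fibroblasts in drugs, serum and days in culture as well as in state, and these cannot be told apart.

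Values are log2 signals as deposited, and array medians over all probe sets lay between 5.41 and 5.49. The labelled states were checked against marker genes. The 10 adipocyte markers averaged 10.20, 11.38 and 10.31 in AICAR, adenine and control adipocytes, against 6.62, 6.31 and 6.33 in AICAR, adenine and control fibroblasts. The 8 fibroblast or preadipocyte markers averaged 10.42, 8.87 and 10.39 in the same adipocytes, against 10.56, 11.43 and 11.35 in the same fibroblasts, so they were still bright in adipocytes. None of the 3 endothelial and 4 epithelial markers, 1 of 4 muscle markers (Des) and 1 of 4 leukocyte markers (Cd68) passed the filter. The 7 measured genes of proliferation averaged 8.92, 8.79 and 8.73 in AICAR, adenine and control adipocytes, against 7.67, 8.21 and 8.25 in AICAR, adenine and control fibroblasts. In bulk RNA, fewer cells of a type and less RNA per cell cannot be told apart.

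The proteins of the box C/D snoRNP, which guide ribose methylation of ribosomal RNA, come first. Nop56, a core scaffold protein, stood at 11.17, 10.94 and 10.94 in AICAR, adenine and control adipocytes, against 10.54, 10.31 and 10.52 in AICAR, adenine and control fibroblasts. Its partner Nop58 stood at 9.61, 9.40 and 9.33 in AICAR, adenine and control adipocytes, against 9.30, 8.92 and 8.88 in AICAR, adenine and control fibroblasts. Both were above every fibroblast array on every adipocyte array, Nop58 by 0.03 between its closest arrays. Fbl (fibrillarin), the methyltransferase, stood at 8.23, 8.07 and 8.30 in AICAR, adenine and control adipocytes, against 7.79, 7.51 and 7.39 in AICAR, adenine and control fibroblasts. Nolc1, a chaperone of snoRNPs, stood at 9.23, 9.36 and 9.18 in AICAR, adenine and control adipocytes, against 9.05, 8.46 and 8.52 in AICAR, adenine and control fibroblasts. In all 4 genes the AICAR fibroblasts were the highest of the fibroblast arrays, and in Nolc1 they came within 0.14 of the lowest adipocyte array.

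Box H/ACA snoRNPs convert uridines of ribosomal RNA to pseudouridine. Dkc1 (dyskerin), the catalytic subunit, stood at 9.28, 9.38 and 9.17 in AICAR, adenine and control adipocytes, against 8.61, 8.04 and 8.42 in AICAR, adenine and control fibroblasts. Gar1, a core subunit, stood at 8.04, 7.99 and 8.21 in AICAR, adenine and control adipocytes, against 7.91, 7.65 and 7.70 in AICAR, adenine and control fibroblasts. Nhp2, another core subunit, stood at 8.34, 8.58 and 7.93 in AICAR, adenine and control adipocytes, against 7.70, 7.55 and 7.67 in AICAR, adenine and control fibroblasts. The groups did not overlap for any of the 3, with gaps of 0.57 for Dkc1, 0.24 for Nhp2 and 0.07 for Gar1. Dkc1 and Nhp2 had their highest value in adenine adipocytes and Gar1 in control adipocytes.

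The next set acts in transcription by RNA polymerase I. Polr1a, the largest subunit, stood at 8.81, 8.80 and 8.72 in AICAR, adenine and control adipocytes, against 8.91, 8.06 and 8.16 in AICAR, adenine and control fibroblasts. Polr1b, the other subunit of the catalytic core, stood at 7.83, 7.87 and 7.89 in AICAR, adenine and control adipocytes, against 7.74, 6.98 and 7.10 in AICAR, adenine and control fibroblasts. Both were near or above the adipocyte levels in AICAR fibroblasts and clearly lower in the other fibroblasts. Rrn3, which recruits the polymerase to its promoter, stood at 9.66, 9.76 and 9.51 in AICAR, adenine and control adipocytes, against 9.23, 8.77 and 8.89 in AICAR, adenine and control fibroblasts. Ddx21, an RNA helicase of the nucleolus, stood at 8.85, 8.92 and 8.90 in AICAR, adenine and control adipocytes, against 8.23, 7.98 and 7.96 in AICAR, adenine and control fibroblasts. Ddx21 had the widest gap between the states of all 32 genes, 0.62 between the lowest adipocyte and the highest fibroblast array.

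Heatr1 and Wdr43 link transcription with early processing in human cells. Heatr1 stood at 8.28, 8.47 and 8.26 in AICAR, adenine and control adipocytes, against 7.85, 7.51 and 7.62 in AICAR, adenine and control fibroblasts. Wdr43 stood at 9.34, 9.32 and 9.34 in AICAR, adenine and control adipocytes, against 9.36, 8.84 and 8.95 in AICAR, adenine and control fibroblasts. The groups did not overlap for Heatr1, while Wdr43 in AICAR fibroblasts reached the adipocyte levels. Mybbp1a, a nucleolar binding partner of Myb proteins, stood at 9.50, 9.41 and 9.45 in AICAR, adenine and control adipocytes, against 9.74, 9.06 and 9.19 in AICAR, adenine and control fibroblasts. Its highest array was that of the AICAR fibroblasts.

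Small-subunit factors cut and fold the precursor of the small subunit's RNA or act late in its maturation. Rrp9, a protein of the U3 snoRNP, stood at 6.83, 6.98 and 6.70 in AICAR, adenine and control adipocytes, against 6.60, 6.35 and 6.61 in AICAR, adenine and control fibroblasts. Utp20, a processome scaffold in yeast, stood at 7.75, 7.69 and 7.79 in AICAR, adenine and control adipocytes, against 7.90, 7.53 and 7.46 in AICAR, adenine and control fibroblasts. The states did not overlap for Rrp9 and did for Utp20. Nop14 stood at 8.79, 8.72 and 8.66 in AICAR, adenine and control adipocytes, against 9.32, 8.42 and 8.54 in AICAR, adenine and control fibroblasts. Noc4l, whose yeast counterpart binds Nop14, stood at 7.91, 7.92 and 7.72 in AICAR, adenine and control adipocytes, against 7.56, 7.26 and 7.55 in AICAR, adenine and control fibroblasts. Nop14 was thus highest in AICAR fibroblasts, whereas Noc4l was higher on every adipocyte array than on any fibroblast array.

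Nat10, which acetylates cytidines of ribosomal RNA, stood at 7.96, 7.95 and 7.70 in AICAR, adenine and control adipocytes, against 7.87, 7.57 and 7.61 in AICAR, adenine and control fibroblasts. Rrp12, an export factor in yeast, stood at 7.51, 7.37 and 7.37 in AICAR, adenine and control adipocytes, against 7.19, 6.68 and 6.86 in AICAR, adenine and control fibroblasts. Only Rrp12 of these 2 genes had states that did not overlap. Tsr1, a late assembly factor, stood at 8.11, 8.23 and 8.11 in AICAR, adenine and control adipocytes, against 7.90, 7.41 and 7.63 in AICAR, adenine and control fibroblasts. Ltv1, another late factor, stood at 6.77, 7.30 and 6.70 in AICAR, adenine and control adipocytes, against 6.97, 6.49 and 6.76 in AICAR, adenine and control fibroblasts. Tsr1 was higher on all adipocyte arrays, and Ltv1 stood apart only on the array of adenine adipocytes.

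Large-subunit factors include the PeBoW complex of Pes1, Bop1 and Wdr12. Bop1 stood at 8.73, 8.53 and 8.49 in AICAR, adenine and control adipocytes, against 7.89, 8.0 and 8.05 in AICAR, adenine and control fibroblasts. Wdr12 stood at 8.29, 8.52 and 8.20 in AICAR, adenine and control adipocytes, against 7.69, 7.66 and 7.77 in AICAR, adenine and control fibroblasts. Pes1 stood at 9.50, 9.48 and 9.57 in AICAR, adenine and control adipocytes, against 9.41, 9.03 and 9.03 in AICAR, adenine and control fibroblasts. All 3 subunits had states that did not overlap, but in AICAR fibroblasts Pes1 was close to adipocytes and Bop1 and Wdr12 were not.

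Nop2, a methyltransferase of large-subunit RNA, stood at 9.53, 9.50 and 9.38 in AICAR, adenine and control adipocytes, against 9.25, 8.59 and 8.92 in AICAR, adenine and control fibroblasts. Nop16 stood at 8.90, 9.27 and 8.70 in AICAR, adenine and control adipocytes, against 8.46, 8.32 and 8.36 in AICAR, adenine and control fibroblasts. Both were higher on every adipocyte array. Noc3l stood at 8.57, 8.42 and 8.39 in AICAR, adenine and control adipocytes, against 8.48, 7.97 and 8.12 in AICAR, adenine and control fibroblasts. Wdr74 stood at 9.81, 9.99 and 9.59 in AICAR, adenine and control adipocytes, against 9.39, 9.21 and 9.53 in AICAR, adenine and control fibroblasts. The states overlapped for Noc3l and were 0.06 apart for Wdr74. Gnl3 (nucleostemin), a nucleolar GTP-binding protein of dividing cells, stood at 8.96, 8.93 and 8.77 in AICAR, adenine and control adipocytes, against 9.79, 8.79 and 8.76 in AICAR, adenine and control fibroblasts. The AICAR fibroblasts stood apart from the other 5 arrays for Gnl3.

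The last pair are abundant nucleolar phosphoproteins with several tasks. Ncl (nucleolin) stood at 10.61, 10.46 and 10.42 in AICAR, adenine and control adipocytes, against 10.41, 10.11 and 10.32 in AICAR, adenine and control fibroblasts. Npm1 (nucleophosmin) stood at 10.62, 10.65 and 10.56 in AICAR, adenine and control adipocytes, against 10.79, 10.49 and 10.69 in AICAR, adenine and control fibroblasts. Ncl differed by 0.01 between its closest arrays of the 2 states, and Npm1 overlapped. Npm1 also has 3 probe sets assigned to it together with another gene, which were not used, and near-identical copies may share its signal.

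**Figure D1:**
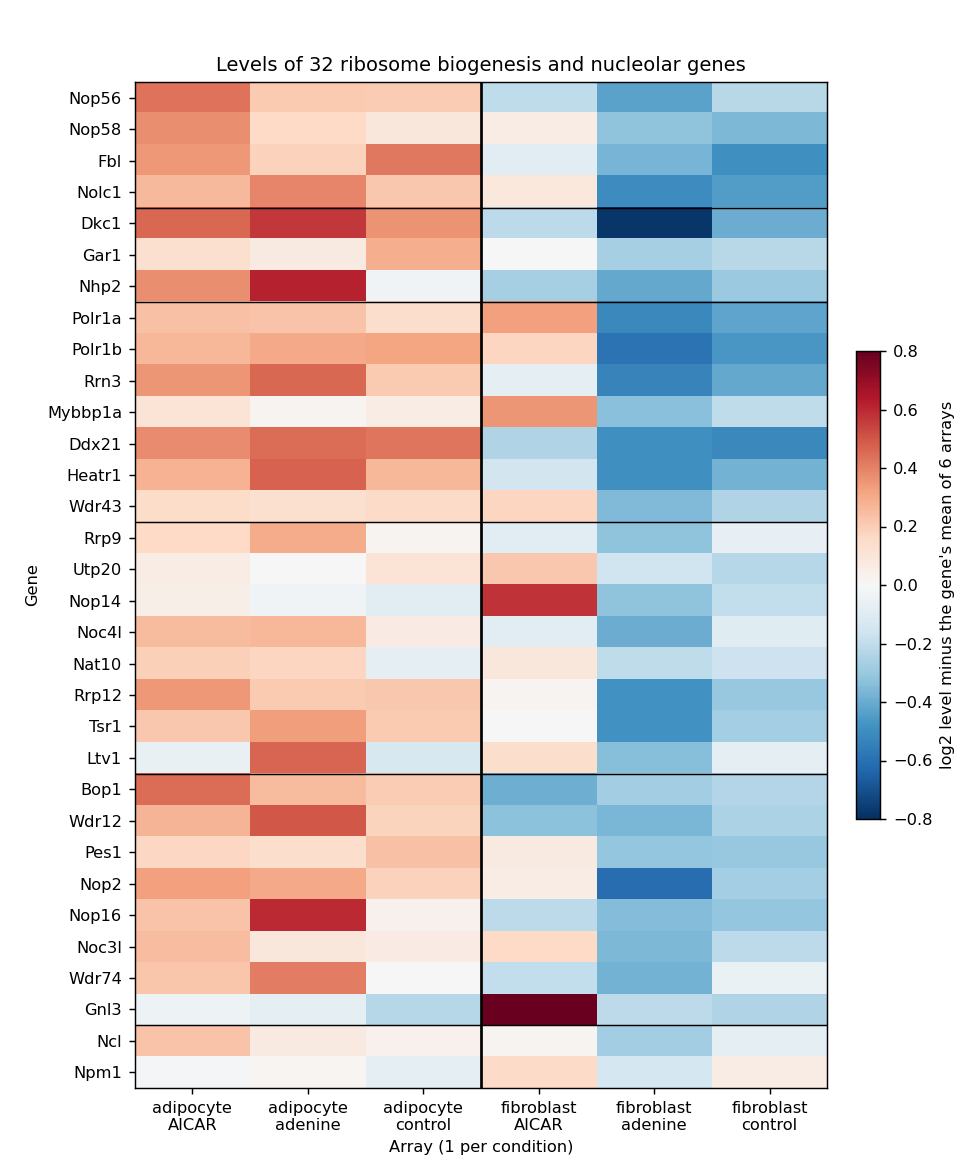
Heat map of 32 genes (rows, ordered by role and separated by lines) on 6 arrays (columns, 1 per condition). Colour gives each gene's log2 level minus its own mean over the 6 arrays. Adipocyte columns are mostly red and the columns of adenine and control fibroblasts mostly blue, while the AICAR fibroblasts are mixed, with Gnl3 (9.79) and Nop14 (9.32) at their highest there.

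The first comparison asked how adipocytes differed from fibroblasts in each of the 3 media. In the controls, 30 of the 32 genes were higher in adipocytes (51.9% of all tested genes were), with a median difference of 0.43 against 0.02 over all tested genes. At least 1.5-fold (0.58 on the log2 scale) higher were 7 of 32 genes and lower were 0, where 7.8% of all tested genes were higher and 10.2% lower by this rule. The 5 largest differences were those of Ddx21 (0.94, 1.92-fold), Fbl (0.91), Polr1b (0.78), Dkc1 (0.76) and Nolc1 (0.67). The 5 lowest were those of Npm1 (-0.13), Ltv1 (-0.06), Gnl3 (0.02), Wdr74 (0.06) and Nat10 (0.09). RNA polymerase I genes had the highest median of the role groups (0.62, all 7 above 0) and the small-subunit factors (0.14) one of the lowest, ahead of Ncl and Npm1. Fbl depended on its probe set, since the other probe set of the gene gave 0.29.

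With adenine in both states the distance was wider. All 32 genes were higher in adenine adipocytes than in adenine fibroblasts (53.2% of all tested genes), with a median of 0.65 against 0.03 over all tested genes. By the 1.5-fold rule 18 were higher and 0 lower, against 15.4% higher and 15.4% lower of all tested genes. Dkc1 led at 1.34 (2.54-fold), followed by Nhp2 (1.02), Rrn3 (1.00), Heatr1 (0.96) and Nop16 (0.95). Gnl3 (0.14), Npm1 (0.16), Utp20 (0.16), Nop14 (0.29) and Gar1 (0.33) were the smallest. All 3 members of the H/ACA group and all 8 large-subunit factors were above 0, with medians of 1.02 and 0.66. On the adenine adipocyte array the fibroblast markers averaged 8.87 and the adipocyte markers 11.38, their lowest and highest among adipocytes, and their part in this width was not tested.

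With AICAR in both states the distance was narrower. Of the 32 genes 24 were higher in AICAR adipocytes than in AICAR fibroblasts (50.2% of all tested genes), with a median of 0.23 against 0.00 over all tested genes. By the 1.5-fold rule 6 were higher and 1 lower, against 15.2% higher and 12.5% lower of all tested genes, so the count of higher genes was near the general share. Bop1 was the highest at 0.84 (1.79-fold), before Dkc1 (0.67), Nhp2 (0.64), Nop56 (0.64) and Ddx21 (0.62). Gnl3 was the lowest at -0.83, followed by Nop14 (-0.53), Mybbp1a (-0.24), Ltv1 (-0.20) and Npm1 (-0.16).

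The 3 differences between the states rest on separate arrays. In all 3 media 24 of 32 genes (75%) were higher in adipocytes, against 27.6% of all tested genes. For 22 of 32 (68.8%) the lowest adipocyte array lay above the highest fibroblast array, against 22.1% of all tested genes. The opposite order was seen for 0 of 32, against 19.9%. The 10 genes that overlapped were Polr1a, Mybbp1a, Wdr43, Utp20, Nop14, Nat10, Ltv1, Noc3l, Gnl3 and Npm1. Fbl was counted as not overlapping by its brighter probe set. On its other probe set, AICAR fibroblasts stood 0.42 and control adipocytes 0.29 above control fibroblasts, so the states overlapped there.

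**Figure D2:**
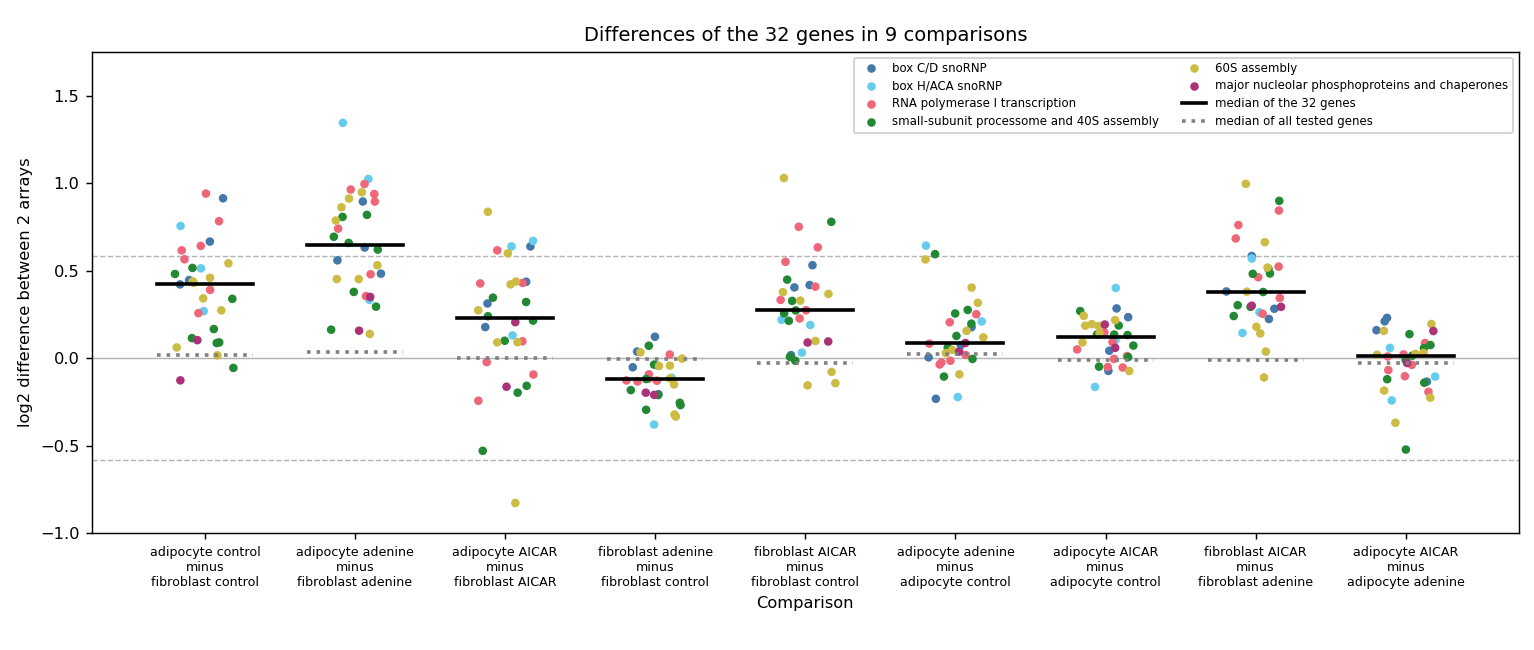
Log2 differences (y axis) of the 32 genes in 9 comparisons of 2 arrays (x axis), 1 point per gene and coloured by role, with the median of the 32 genes as a black line and that of all tested genes as a dotted grey line. Dashed lines mark 1.5-fold. All 32 points lie above 0 for adenine adipocytes against adenine fibroblasts (median 0.65), and most lie below 0 for adenine against control fibroblasts (median -0.12).

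Because no condition was repeated, limma was fitted with additive terms for state and medium. Its p-values judge each term against departures from additivity, not against the spread between cultures, which was not measured. Dkc1 rose in adipocytes by 0.92 (SE 0.185, limma adjusted p = 0.037) and Ddx21 by 0.83 (SE 0.149, limma adjusted p = 0.0294). These 2 of 32 genes passed the threshold of 0.05 after Benjamini-Hochberg adjustment and 0 fell, where 5.22% of all tested genes rose and 5.37% fell, so the share of called genes was near that of all genes. The unadjusted p was under 0.05 for 16 of the 32, all with higher values in adipocytes, and for 2941 of all 9969 genes. Next in order were Heatr1 (0.68, limma adjusted p = 0.0589), Wdr12 (0.63, limma adjusted p = 0.06) and Rrn3 (0.68, limma adjusted p = 0.0608), which did not pass. The median coefficient of the 32 genes was 0.42, against 0.02 over all tested genes. Without the control arrays 0 of the 32 genes and 0 of all 9969 were called, without the adenine arrays 0 of the 32 and 511 of all, and without the AICAR arrays 3 of the 32 and 920 of all.

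**Figure D3:**
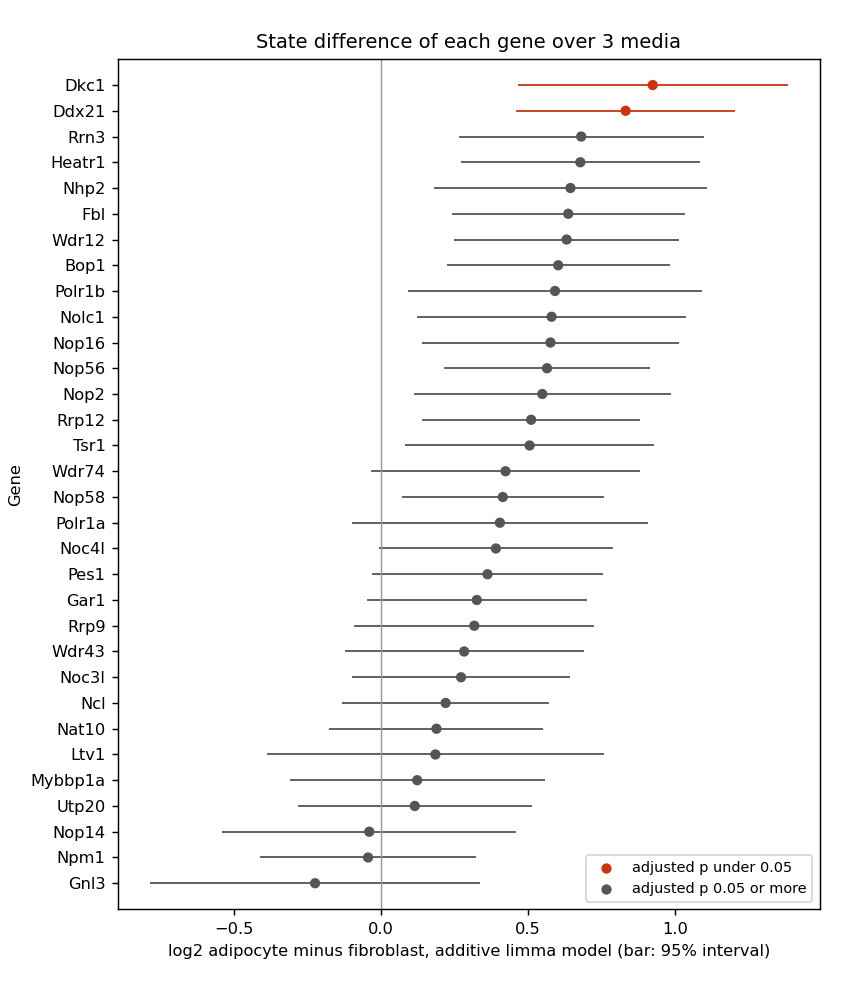
State difference of each of the 32 genes (log2 adipocyte minus fibroblast, x axis) in the additive limma model, ordered by size, with bars for the 95% confidence interval. Red points passed an adjusted p of 0.05, which only Dkc1 (0.92) and Ddx21 (0.83) did, and Gnl3 has the lowest coefficient (-0.22).

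Within fibroblasts, the comparisons asked what each compound did over 3 days. AICAR fibroblasts had higher values than control fibroblasts for 28 of 32 genes (47.5% of all tested genes), with a median of 0.27 against -0.03 over all tested genes. By the 1.5-fold rule 4 were higher and 0 lower, where 6.91% of all tested genes were higher and 12.1% lower. Gnl3 had the largest difference at 1.03 (2.04-fold), followed by Nop14 (0.78, 1.72-fold), Polr1a (0.75), Polr1b (0.63) and Mybbp1a (0.55). Bop1 (-0.16), Wdr74 (-0.14), Wdr12 (-0.08), Rrp9 (-0.02) and Noc4l (0.01) were the smallest. RNA polymerase I genes were all above 0 (median 0.41), as were the box C/D proteins (0.41), while the large-subunit factors spread from Bop1 to Gnl3 around a median of 0.21. On the AICAR array 7 of 32 genes (21.9%) stood at or above every adipocyte array, against 36.8% of all tested genes, namely Polr1a, Mybbp1a, Wdr43, Utp20, Nop14, Gnl3 and Npm1. The proliferation genes averaged 7.67 in AICAR fibroblasts and 8.25 in control fibroblasts, lower where most of the 32 genes were higher. The fibroblast markers averaged 10.56 and 11.35 in the same order. Of the leukocyte list, Cd68 was higher by 1.49 in AICAR fibroblasts. The rest of that list, Ptprc (-0.03), Itgam (0.06) and Adgre1 (0.20), lay below the filter and showed no such rise. The part of these markers in the result was not tested.

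Adenine fibroblasts showed small differences in the other direction. Below 0 against control fibroblasts were 27 of 32 genes (52.1% of all tested genes), with a median of -0.12 against -0.01 over all tested genes. None of the 32 reached 1.5-fold either way, where 0.542% of all tested genes were higher and 0.321% lower. The lowest were Dkc1 (-0.38), Nop2 (-0.33), Wdr74 (-0.32), Noc4l (-0.30) and Ltv1 (-0.27), and the highest were Fbl (0.12), Utp20 (0.07), Nop58 (0.04), Gnl3 (0.03) and Ddx21 (0.02). The adenine fibroblasts were the lowest of all 6 arrays for 26 of the 32 genes (81.2%), against 15.1% of all tested genes. Without a repeat of either culture, this size cannot be set against variation between cultures.

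AICAR and adenine fibroblasts, given the same dose for the same time, were also compared with each other. AICAR was above adenine for 31 of 32 genes (48.9% of all tested genes), with a median of 0.38 against -0.01 over all tested genes. By the 1.5-fold rule 6 were higher and 0 lower, against 6.92% and 11.9% of all tested genes. Gnl3 (1.00), Nop14 (0.90), Polr1a (0.84), Polr1b (0.76) and Mybbp1a (0.68) led here too, and this comparison shares the AICAR array with the one before. Bop1 (-0.11), Wdr12 (0.04), Nop16 (0.14), Nhp2 (0.14) and Wdr74 (0.18) were the smallest.

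Adipocytes were collected 3 days after the compound was withdrawn. AICAR adipocytes were above control adipocytes for 25 of 32 genes (47.4% of all tested genes), with a median of 0.12 against -0.01 over all tested genes. None of the 32 reached 1.5-fold, where 1.81% of all tested genes were higher and 1.86% lower. The largest were Nhp2 (0.40), Nop58 (0.28), Nat10 (0.27), Bop1 (0.24) and Nop56 (0.23), and the smallest were Gar1 (-0.16), Pes1 (-0.07), Fbl (-0.07), Polr1b (-0.05) and Ddx21 (-0.05). RNA polymerase I genes had a median of 0.01.

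Adenine adipocytes were above control adipocytes for 24 of 32 genes (52.5% of all tested genes), with a median of 0.08 against 0.02 over all tested genes. This median was 0.0006 after quantile normalization and 0.16 after median centring, so no direction is given for the group. By the 1.5-fold rule 2 were higher and 0 lower, where 6.85% of all tested genes were higher and 6.87% lower. Nhp2 (0.64, 1.56-fold) and Ltv1 (0.59) were the 2 genes past 1.5-fold, followed by Nop16 (0.56), Wdr74 (0.40) and Wdr12 (0.32). Fbl (-0.23), Gar1 (-0.22), Utp20 (-0.11), Pes1 (-0.09) and Mybbp1a (-0.04) were the smallest, and the other Fbl probe set gave 0.34. In the same comparison all 10 adipocyte markers were above 0 (median 1.13) and all 8 fibroblast markers below 0 (median -1.58), and their part in the result was not tested. Against adenine adipocytes, AICAR adipocytes had a median of 0.01, with 0 genes past 1.5-fold either way, where 5.94% of all tested genes were higher and 5.38% lower. The extremes were Nop56 (0.23) and Ltv1 (-0.52).

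The responses were then set side by side between the states, which rest on different arrays. AICAR gave the larger difference in fibroblasts for 22 of 32 genes (68.8%), against 48.6% of all tested genes. The widest contrasts were Gnl3, at 0.19 in adipocytes and 1.03 in fibroblasts, Polr1b at -0.05 and 0.63, and Polr1a at 0.09 and 0.75, in the same order. Bop1 ran the other way, with 0.24 in adipocytes and -0.16 in fibroblasts. Adenine gave a positive difference in adipocytes and a negative one in fibroblasts for 21 of 32 genes (65.6%), against 29.3% of all tested genes. The adipocyte side of this count depends on the normalization, since its median of 0.08 was 0.0006 after quantile normalization. The count itself was not recomputed. Across the 32 genes the responses of the 2 states had a Pearson r of -0.29 for AICAR (Spearman rho -0.39) and of -0.38 for adenine (rho -0.36), given as a description since all points of a plot come from the same 4 arrays. With 1 array per condition, no difference in response between the states could be tested. The additive limma model called 0 of the 32 genes for AICAR and 0 for adenine, and 0% of all tested genes for either. At an unadjusted p under 0.05 in limma were 0 of the 32 for either compound, against 226 of all 9969 genes for AICAR and 62 for adenine. The model takes a response that differs between states as error.

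**Figure D4:**
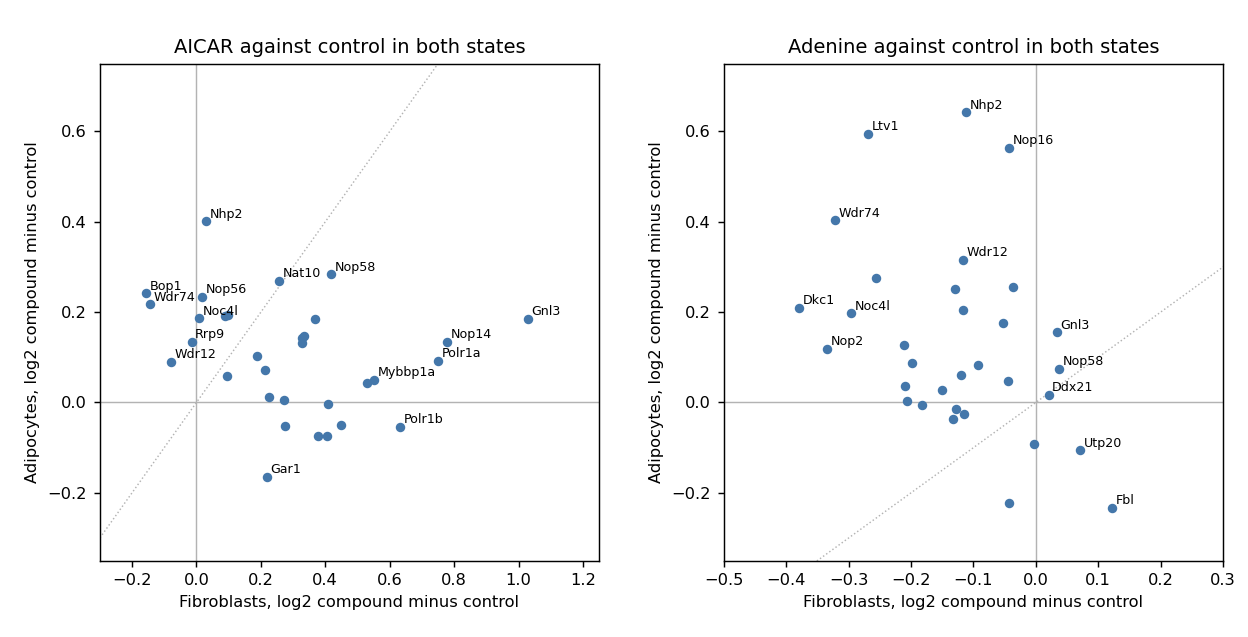
Log2 difference from control in adipocytes (y axis) against fibroblasts (x axis) for AICAR (left) and adenine (right), 1 point per gene of 32, with the outermost genes named. The dotted line marks equal differences. Gnl3 lies far right of that line for AICAR (1.03 in fibroblasts and 0.19 in adipocytes), and Ltv1, Wdr74 and Dkc1 lie to the upper left for adenine.

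Myc, the regulator named above, is not one of the 32 genes. It stood at 9.83, 9.71 and 9.43 in AICAR, adenine and control adipocytes, against 9.80, 7.58 and 8.06 in AICAR, adenine and control fibroblasts. Its order over the fibroblasts, AICAR above control above adenine, was that of the group median. It was higher by 1.74 in AICAR than in control fibroblasts and stood at -0.49 in adenine fibroblasts. Between AICAR adipocytes and AICAR fibroblasts it differed by 0.02, where the median of the 32 genes was 0.23. Its state difference of 1.17 did not pass the additive model (SE 0.391, limma adjusted p = 0.117). Whether Myc had a part in the levels of the 32 genes was not tested. Among the 10 tested genes of the Myc network, 6 were above 0 in AICAR fibroblasts against control (47.5% of all tested genes were). Mxd4, an antagonist of the Myc family, had the lowest value there (-1.13). The other antagonists did not share that fall: Mxi1 (0.78), Mnt (0.59) and Mxd1 (0.29) were higher, and Mxd3 stood at -0.10.

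**Figure D5:**
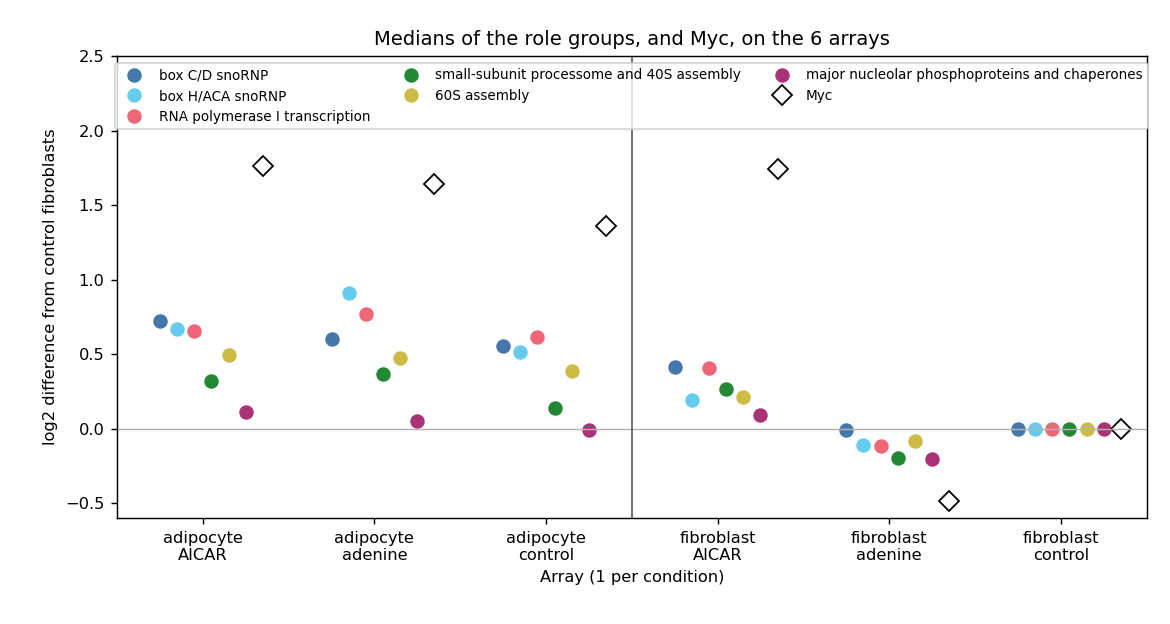
Median log2 difference from control fibroblasts for 6 role groups (filled circles) and the value of Myc (open diamonds) on each of 6 arrays (x axis, 1 array per condition). Myc lies above the groups on the 3 adipocyte arrays and in AICAR fibroblasts (1.74) and below them in adenine fibroblasts (-0.49), and Ncl with Npm1 stay nearest to 0 on the adipocyte arrays.

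The start regions of the 32 genes were searched for CACGTG, the E-box that Myc with its partner Max can bind. RefSeq windows of 300 bases, from 250 before to 50 after the annotated start (GRCm38.p6), were at hand for 28 genes, and Fbl, Bop1, Npm1 and Rrp12 had none. CACGTG reads the same on both strands. It was found in 8 of 28 genes (28.6%), namely Rrn3, Mybbp1a, Wdr43, Utp20, Tsr1, Ltv1, Pes1 and Nop2, against 7.15% of all 32851 windows. The related CACGCG, which reads CGCGTG on the other strand, was found in 6 of 28 (21.4%) against 9.27% of all windows, and CCGGAAG, which reads CTTCCGG on the other strand and is a core bound by ETS factors, was found in 10 of 28 (35.7%) against 8.86%. Bases shared by neighbouring motifs were counted for each, and a match describes letters only.

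The 30 bases around each CACGTG are shown in the direction of the gene with the motif in capitals. These 8 genes come from different role groups and were picked by the motif, so sharing it is no result.
Rrn3, chr16:13780472-13780501, plus strand: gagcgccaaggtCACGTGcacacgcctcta
Rrn3, chr16:13780639-13780668, plus strand: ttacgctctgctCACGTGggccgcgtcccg
Nop2, chr6:125131811-125131840, plus strand: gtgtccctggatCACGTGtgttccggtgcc
Pes1, chr11:3963965-3963994, plus strand: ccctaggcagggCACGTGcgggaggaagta
Wdr43, chr17:71616220-71616249, plus strand: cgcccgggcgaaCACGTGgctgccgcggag
Tsr1, chr11:74898092-74898121, plus strand: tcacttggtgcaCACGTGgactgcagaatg
Ltv1, chr10:13193092-13193121, minus strand: gccctgtggaccCACGTGtggagctgccgg
Utp20, chr10:88826765-88826794, minus strand: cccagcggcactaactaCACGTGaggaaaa
Mybbp1a, chr11:72441347-72441376, plus strand: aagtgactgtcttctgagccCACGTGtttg
Only Rrn3 and Nop2 have the motif before the annotated start. Counted from the annotated start, it begins at -215 and -48 in Rrn3 and at -60 in Nop2. In the other 6 genes it lies within the 50 bases after the start used for the window. It begins at base 3 in Pes1, 18 in Wdr43, 25 in Tsr1, 29 in Ltv1, 38 in Utp20 and 41 in Mybbp1a. The gene record of Wdr43 begins upstream of the start used here, at 71616178, so its position holds for that start only.

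The upstream stretches of 250 bases of Rrn3, with 2 motifs, and of Gnl3, with the largest AICAR difference in fibroblasts and no motif, are shown for contrast. Rrn3 lies on chromosome 16 at 13780699 to 13814841 and Gnl3 on chromosome 14 at 31012433 to 31019131, both protein-coding.
Rrn3, chr16:13780449-13780698, plus strand: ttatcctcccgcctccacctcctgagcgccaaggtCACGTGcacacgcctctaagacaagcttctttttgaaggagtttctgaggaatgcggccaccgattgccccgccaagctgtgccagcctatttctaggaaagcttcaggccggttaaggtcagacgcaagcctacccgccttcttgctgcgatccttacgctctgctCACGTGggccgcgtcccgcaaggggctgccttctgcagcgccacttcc
Gnl3, chr14:31019132-31019381, minus strand: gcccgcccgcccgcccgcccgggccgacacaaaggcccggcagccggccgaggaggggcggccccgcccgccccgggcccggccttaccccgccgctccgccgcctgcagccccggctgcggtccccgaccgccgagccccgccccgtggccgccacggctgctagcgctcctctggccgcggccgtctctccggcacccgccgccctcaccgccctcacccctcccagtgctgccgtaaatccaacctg
The 8 genes with CACGTG had a median AICAR difference of 0.35 in fibroblasts (0.21 to 0.55), and the 20 without it one of 0.22 (-0.14 to 1.03). Between adipocytes and fibroblasts the genes with and without it had medians of 0.42 and 0.38 in control medium, 0.64 and 0.70 with adenine and 0.03 and 0.28 with AICAR. Within adipocytes the medians with and without it were 0.03 and 0.16 for AICAR and 0.05 and 0.17 for adenine. The order of the 2 sets thus differed between comparisons, their ranges overlapped, and no test was made on this split.

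Other genes of the pathway were described from lists of known factors. For adipocytes against fibroblasts in limma, 1 of 13 other RNA polymerase I genes rose, 3 of 43 other small-subunit factors, 2 of 39 other large-subunit factors and 1 of 4 noncoding snoRNA host genes, and 0 fell. Over all tested genes 5.22% rose and 5.37% fell, so the counts of the 3 larger lists were near the general share. Of 9 other snoRNP proteins, 19 exosome and RNase MRP subunits and 10 Myc network genes, 0 passed. Taf1d, a subunit of the promoter selectivity factor of RNA polymerase I, rose by 1.14 (SE 0.187, limma adjusted p = 0.0248). The processing factor Rcl1 rose by 1.23 (SE 0.205, limma adjusted p = 0.0256) and Rrs1, a large-subunit factor, by 0.79 (SE 0.162, limma adjusted p = 0.0388).

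Medians of 4 of these lists in control adipocytes against control fibroblasts were 0.24 for RNA polymerase I, 0.16 for small-subunit, 0.17 for large-subunit and 0.23 for exosome genes. All were below the 0.43 of the 32 genes. The other snoRNP proteins (0.05), the Myc network (0.04) and the snoRNA host genes (0.06) were lower still. With adenine in both states the small- and large-subunit lists each had a median of 0.50, led by Rcl1 (1.74) and Rrs1 (1.09). With AICAR in both states the RNA polymerase I list was at -0.08. The small-subunit, large-subunit and exosome lists were at 0.13, 0.20 and 0.09 there. In AICAR against control fibroblasts the medians were 0.16, 0.17, 0.18 and 0.005 for the RNA polymerase I, small-subunit, large-subunit and exosome lists. Polr1c (0.75), Wdr75 (0.70), Sbds (0.83) and Exosc10 (0.68) were the highest in these 4 lists, and Polr1d (-0.40), Tsr2 (-0.46), Nop53 (-0.29) and Pop1 (-0.96) the lowest. The medians of the other snoRNP proteins, the Myc network and the snoRNA host genes were 0.01, 0.22 and -0.17 there. In adenine against control fibroblasts the same 4 lists were below 0, at -0.10, -0.09, -0.13 and -0.15. The snoRNP proteins (-0.06) and host genes (-0.24) were below 0 as well, and the Myc network was at 0.05. In adenine against control adipocytes the small-subunit list had a median of 0.24, with 39 of 43 genes above 0 (52.5% of all tested genes) and Fcf1 at 0.96. Medians there were 0.26 for exosome genes, 0.11 for large-subunit factors, 0.02 for snoRNP proteins and 0.002 for RNA polymerase I genes. Whether these list medians depend on the normalization was not tested.

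The snoRNAs guide the modifications of ribosomal RNA. Of 54 small nucleolar RNA symbols on the array 46 passed the filter. In AICAR against control fibroblasts 38 of these 46 were below 0, with a median of -0.27 (47.5% of all tested genes were above 0). With adenine, 41 of 46 were below 0 against the same control array, with a median of -0.18 (52.1% of all tested genes were below 0). AICAR against adenine fibroblasts had a median of -0.02, with 22 above and 24 below 0 (48.9% of all tested genes were above 0). In control adipocytes against control fibroblasts 34 of 46 were below 0, with a median of -0.16 (51.9% of all tested genes were above 0). The sign was the other in AICAR adipocytes, with 31 of 46 above 0 against AICAR fibroblasts (median 0.21, 50.2% of all tested genes above 0) and 32 of 46 above 0 against control adipocytes (median 0.10, 47.4% of all tested genes above 0). The noncoding host genes Gas5 and Snhg5 stood at -0.17 and -0.40 in AICAR against control fibroblasts. Probe sets of such short RNAs may also read the host transcript, and this was not tested.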

How the data were processed

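Total RNA of 6 cultures of 3T3-L1 cells was measured on 6 Affymetrix whole-transcript arrays, 1 per condition, and groups came from the labels. The deposited values are log2 expression levels of 35556 probe sets, made by the authors with Transcriptome Analysis Console 1.0.0.234 and build mm10, per the submitters' processing notes. How background, normalization and probes were handled is not given in the sources used here. Values were used as deposited.

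Probe sets with 1 symbol in the platform annotation (21789 of 35556) gave 19938 genes, by the probe set of the highest mean. The brighter of them, with an average no lower than the median gene's, were tested (9969). Differences are log2 values of 2 arrays subtracted, with no test possible, and the number of arrays limits their precision. Genes at 1.5-fold or more were counted. limma 3.58.1 in R 4.3.3 fitted state and medium additively over 6 arrays (2 residual and 3.64 prior degrees of freedom), two-sided, with Benjamini-Hochberg adjustment over all tested genes. Nothing measures the spread between cultures. The step was tested on simulated data.

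The 34 genes, the role groups and the other lists were chosen with earlier results of these data known. All 32 genes may be named, and otherwise the named genes are the 5 highest and 5 lowest of the 32 per comparison, the extremes of other lists, and Myc. Start regions came from RefSeq (GRCm38.p6). Alternatives were quantile normalization, median centring, other filters (none, or the 75th percentile), the mean over probe sets, an intensity trend and leaving out each pair of arrays.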

Additional observations from a re-analysis of the deposited data

Results flagged for a closer look

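In 3 of the 32 genes adenine went with opposite differences from control in the 2 states, each of at least 0.25 on the log2 scale. Wdr74, a large-subunit factor, stood at 0.40 in adipocytes and -0.32 in fibroblasts. Ltv1, a late small-subunit factor, stood at 0.59 in adipocytes and -0.27 in fibroblasts, and Rrp9, of the U3 snoRNP, at 0.28 in adipocytes and -0.26 in fibroblasts. Both values of Rrp9 lay close to the minimum of 0.25. The share of all tested genes that meet this rule was not computed, so the count is not a result particular to the 32. With 1 array per condition these differences between the states were not tested. For AICAR, 0 of the 32 genes met the same minimum.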

How the results depend on the processing

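Of 36 recomputed medians (9 comparisons under 4 alternatives), 35 kept their sign and moved by less than 0.1. The exception was AICAR against adenine adipocytes, where the median of 0.0116 became -0.0045 with median centring. The largest moves of any median were 0.0837 with quantile normalization, 0.0779 with median centring, 0.0498 with the 75th percentile filter (26 of 32 genes left) and 0.0052 with the mean over probe sets. Of 132 recomputed gene differences, for the 44 past 1.5-fold, 126 moved by less than 0.1 and 0 changed sign. Gnl3 in AICAR against control fibroblasts was 1.15 with quantile normalization, and Fbl between the control states was 0.60 with the mean over its probe sets. In the state model 2 of 32 genes were called under each alternative normalization, filter, probe set rule and trend that was run, and 0 to 3 when a pair of arrays was left out (0 without the control pair, 0 without the adenine pair), fits with fewer arrays. The compound terms called 0 of the 32 genes under every alternative run, with 0 at an unadjusted p under 0.05 in limma. Levels of all 32 genes lay above the filter, which is the median gene's mean and not a detection call. Rrp9 (6.35 to 6.98) and Ltv1 (6.49 to 7.30) were among those below the 75th percentile. With no repeat of any condition the error of a single difference is not known.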
